A study of Pistacia vera with 121 samples.

Results

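In the developing fruit of the pistachio cultivar Kerman, 67 of 37063 genes had their highest shell level at a sampling point from 1223 to 1657 and were far higher in shell than in hull or kernel. They were chosen on these same measurements. Levels were expressed as CPM, each gene's count scaled to a fixed total of the counts on numbered chromosomes, averaged over the libraries of 1 tissue at 1 sampling point. The rule asked for a highest shell mean at 1223, 1357, 1508 or 1657, of at least 10 CPM, and over 3 times every hull and every kernel mean. It would have kept at most 150 genes, a limit that was not reached. The height of the members in shell, the gap to the other tissues and the position of the peak are therefore descriptions and carry no test.

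The shell of a pistachio is the endocarp, the inner layer of the fruit wall, which encloses the seed. As in the stone of a peach or an olive, its cells build thick secondary walls of cellulose and xylan and fill them with lignin, a polymer of phenolic alcohols made by the phenylpropanoid pathway, and most of these cells die once the wall is complete. In pistachio the shell reaches its size and hardens before the kernel fills it, and the hull, the outer layer of the fruit, remains fleshy.

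Fruits were followed by RNA sequencing of bulk tissue, and the submitters labelled each library with its tissue and with growing degree days in °C, a running sum of daily heat. Shell was sampled at 11 points from 865 to 2139, hull at 15 points from 865 to 2564 and kernel at 12 points from 1223 to 2564. The labels name Kerman for all groups and no treatment, so each group is 1 tissue at 1 point. The rule left out 14 libraries, and the values here rest on the remaining 34 shell, 44 hull and 29 kernel libraries, which leave kernel groups from 1223 to 2377.

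Counts on numbered chromosomes ran from 7654046 to 16586003 per used shell library, from 7680501 to 18115772 in hull and from 850623 to 12312036 in kernel. In the shallowest shell library labelled 1357, a level of 10 CPM stood for 84.1 counts. CPM is not corrected for transcript length, so a level compares 1 gene between libraries, and between genes it compares reads and not transcripts. In bulk tissue, fewer cells of a type and less RNA per cell cannot be told apart. The deposited table gives identifiers with no gene names, and 0 of its 38315 identifiers could be found among the RefSeq genes of the PisVer_v2 assembly. The members are thus described by identifier and level, no role is given to any of them, and the labelled tissues could not be checked against marker genes.

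Some labels went against the profiles. H15, labelled hull 1357, correlated best with the shell group labelled 1223 (r = 0.980 over 19681 genes, on log2 CPM), and S14, labelled shell 1223, correlated best with the hull group labelled 1223 (r = 0.987). Both were left out by the rule. The order of 2 points was also unlike the order of their labels. The shell mean labelled 1357 correlated with that labelled 1106 at 0.982, above the 0.969 of the mean labelled 1223. The mean labelled 1223 in turn correlated with that labelled 1657 at 0.980, against 0.954 for 1357. In hull the same held, with 0.979 for 1357 and 0.974 for 1223 against 1106, and 0.982 for 1223 and 0.971 for 1357 against 1657. All 3 shell libraries labelled 1357 were nearest to the shell group labelled 1106, and 2 of the 3 used libraries labelled 1223 were nearest to that labelled 1657. Sampling points are the labelled ones throughout.

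The group labelled 1357 held the peak of 58 of the 67 members, while 5 peaked at 1657, 2 at 1223 and 2 at 1508. Among the 12841 genes that reached 10 CPM in shell, 4.44% had their highest shell mean at 1357, 4.53% at 1223, 15.1% at 1508 and 7.13% at 1657. Without the groups labelled 1357, the rule found 13 genes, of which 11 were among the 67. Without those labelled 1223 it found 70, of which 66 were among the 67. With the 1357 group set aside, the highest remaining shell mean of the 67 lay at 1106 for 28, at 865 for 12 and at 993 for 11, so 51 of the 67 were then highest before 1223.

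Peak means ran from 10.5 to 2460 CPM with a median of 66.6. A peak of at least 20 CPM was seen in 55 members, of at least 100 CPM in 22. The 5 with the highest peaks, from 1136 to 2460 CPM, made up 56.1% of the members' counts at 1357 and between 51.5% and 62.4% at every shell point. The ratio of the peak to the highest mean in another tissue ran from 3.11 to 161 with a median of 8.55, and 31 members were over 10-fold. That highest other mean lay in hull for 54 members and in kernel for 13. For 66 members every library of the peak group lay above every used hull and kernel library.

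PvKer.09.g220460 was the lowest member by level, with a peak of 10.5 CPM, and PvKer.08.g209140 stayed outside with 9.19 CPM. PvKer.12.g288100 had the lowest ratio to another tissue, 3.11, and PvKer.10.g258580 stayed outside with 2.94. With the same limits of level and ratio, 363 shell genes peaked at 865 to 1106 and 57 at 1759 to 2139.

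**Figure D1:**
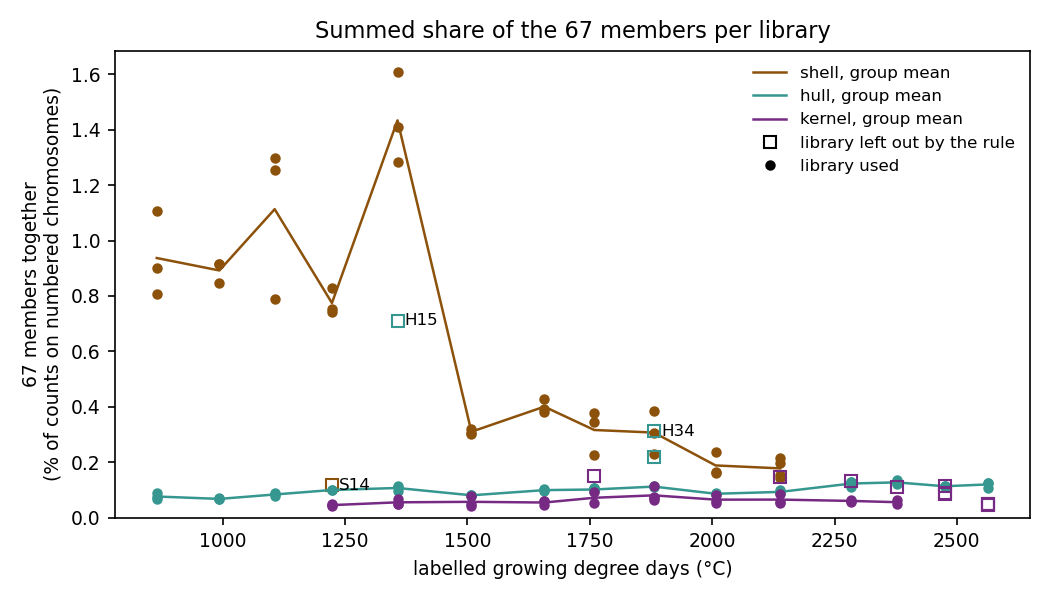
Counts of the 67 members together, in % of the counts on numbered chromosomes (y axis), against labelled growing degree days in °C (x axis). Each dot is a library, lines join group means of the used libraries, and squares are libraries left out by the rule. Used shell libraries are highest at 1357 (1.28% to 1.61%) and drop to 0.304% to 0.320% at 1508, while every used hull and kernel library is at 0.135% or lower.

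Summed over the members, the share of the counts gives the course of the group in 1 value per library. In shell it was 0.937% ± 0.153 (SD, n = 3) at 865, 0.892% ± 0.0396 at 993 and 1.11% ± 0.282 at 1106. It was 0.775% ± 0.0473 at 1223 and 1.43% ± 0.162 at 1357, where the libraries stood at 1.41%, 1.28% and 1.61%. It was 0.310% ± 0.00867 at 1508, 0.401% ± 0.0261 at 1657, 0.317% ± 0.0798 at 1759 and 0.307% ± 0.0776 at 1881. The last points were 0.189% ± 0.0416 at 2007 and 0.178% ± 0.0350 (n = 4) at 2139. The plot of the summed share by library shows every used shell library from 865 to 1357 above every shell library from 1508 on. The left-out S14, labelled shell 1223, lay below them all at 0.118%. The libraries at 1657 lay above those at 1508, and the means at 2007 and 2139 were the lowest. The lowest library labelled 1357 overlapped the highest library labelled 1106, which reached 1.297%.

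In hull the same share lay between 0.0672% and 0.135% over 44 libraries and in kernel between 0.0429% and 0.115% over 29. At 1881 a large part of it came from PvKer.05.g130620, with means of 513 CPM in hull and 603 CPM in kernel. The mean shares there were 0.113% and 0.0811%. The part was smaller in kernel at 1223, with 113 CPM and a mean share of 0.0458%. Outside shell the share thus depends on this gene and is not a level common to the members. All 34 used shell libraries lay above every used hull and kernel library. The rule favours this by its cap on hull and kernel, but it sets no shell level away from the peak. The lowest shell library, S44 at 2139, had 0.143%, close to the 0.135% of the highest hull library, H52.

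**Figure D2:**
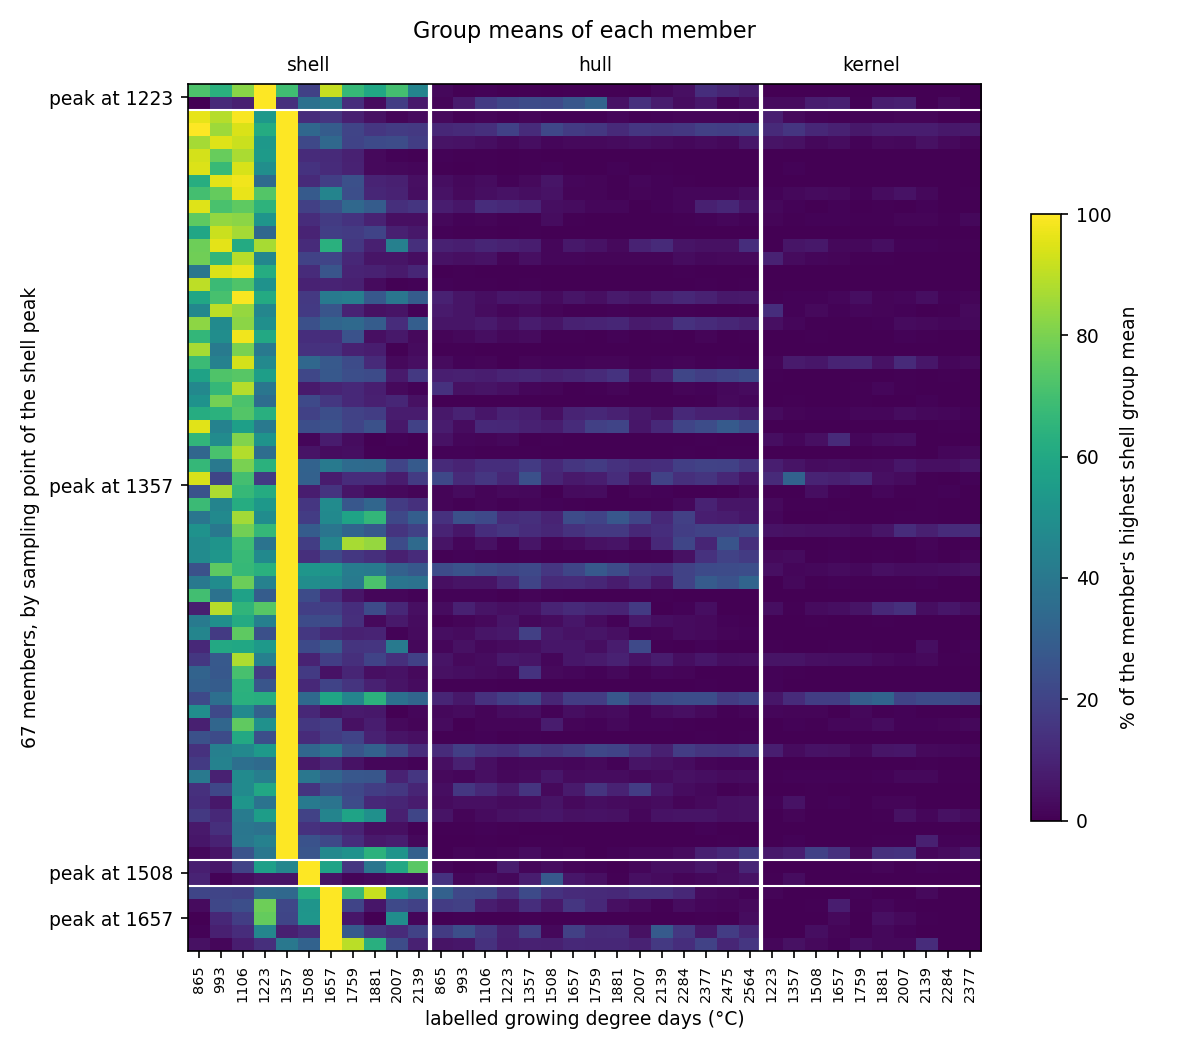
Group means of each member (rows) in % of its highest shell mean (colour scale), for each tissue and labelled growing degree day in °C (columns), with the members ordered by the point of their shell peak. The 58 members that peak at 1357 have medians of 48.8% to 73.6% from 865 to 1106 and of 22.3% or lower from 1508 on, and the hull and kernel columns are dark by the rule.

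Within shell, the 58 members that peaked at 1357 were mostly high at other points too. Their median level, in % of the peak, was 48.8 at 865, 48.8 at 993, 73.6 at 1106 and 49.1 at 1223. It was 17.3 at 1508, 22.3 at 1657 and 16.3 at 1759, and 11.1, 7.84 and 4.43 at 1881, 2007 and 2139. For 28 of them the second-highest mean was at 1106, for 12 at 865 and for 11 at 993. An earlier mean of at least 50% of the peak was seen in 49, with a median of 87.1% for the highest earlier mean of these. The other 9 stayed under 50% at every earlier point, with a highest earlier mean between 25.6% and 49.4% of the peak. A later mean of at least 50% was seen in 6. The map of group means shows levels at 1223 near those at 865 and 993, brighter columns at 1106 and 1357, and dim columns from 1508 on.

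The peak stood little above the next-highest point. Over all 67 members the peak mean was a median of 1.25 times the second-highest shell mean, under 1.2 times for 31 members and over 2 times for 8. For 19 members all libraries of the peak group lay above all libraries of the second-highest shell group. For the other 48 the libraries of the 2 groups overlapped. The coefficient of variation at the peak had a median of 14.5% and reached 70.9%. Among the 58, S19 was the highest library of the 1357 group for 42, S17 for 14 and S18 for 2.

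The level at 1223 lay below those at both 1106 and 1357 in 51 of the 67 members. Of the 11474 genes with at least 10 CPM at 1 of these 3 points, 32.7% had that shape. The higher position of 1357 was used to choose the members. The shape also rests on the labelled order, which the profiles of the groups labelled 1223 and 1357 went against. Whether it is a dip over time cannot be told.

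PvKer.08.g210270, on chromosome 8, had the highest CPM of all members and of those that peaked at 1357. Its libraries stood at 2312, 2171 and 2896 CPM at 1357, at 1245, 1331 and 1455 CPM at 1223, and at 353, 303 and 248 CPM at 1508. The earlier libraries, from 865 to 1106, ran from 1539 to 2781 CPM. Those at 1357 overlapped the earlier ones and lay above all libraries labelled 1223 and 1508. At 2139 its libraries stood at 11.2, 9.60, 32.7 and 16.5 CPM, far under every shell library up to 1759. Hull libraries ran from 1.29 to 32.9 CPM and kernel libraries from 0 to 9.40 CPM.

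PvKer.07.g173200, on chromosome 7, had the highest CPM of the 2 members that peaked at 1223. Its libraries stood at 60.2, 73.0 and 82.9 CPM there, at 46.3, 46.7 and 56.7 CPM at 1357, and at 10.7, 13.999 and 16.8 CPM at 1508. At 1657 they were back at 63.6, 82.4 and 50.7 CPM. The libraries at 1223 and 1657 overlapped, and those at 1508 lay under all other shell libraries of this gene.

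PvKer.03.g074270, on chromosome 3, had the highest CPM of the 2 members that peaked at 1508, where its libraries stood at 29.7, 33.01 and 23.2 CPM. At 2139 they stood at 36.2, 19.6, 10.9 and 18.6 CPM, so the single highest shell library was labelled 2139 and the groups overlapped. From 865 to 1106 its libraries ran from 0.516 to 7.18 CPM, below all libraries at 1508. The other member that peaked at 1508, PvKer.09.g221110, is described after its values were seen. It stood at 16.6, 15.2 and 9.39 CPM at 1508 and at 2.21 CPM or lower in every other shell library, and the mean at 1508 was 9.97 times the next. Its highest hull mean was also at 1508, with 3.82 CPM, and the next-highest hull mean was 1.99 CPM at 865.

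PvKer.11.g272840, on chromosome 11, had the highest CPM of the 5 members that peaked at 1657, where its libraries stood at 25.1, 35.5 and 5.41 CPM. At 1223 they stood at 13.5, 15.9 and 21.03 CPM, at 1357 at 5.59, 3.88 and 4.33 CPM and at 1508 at 13.3, 10.5 and 11.05 CPM. The libraries at 1657 overlapped those of all these points, and the peak there rests on 2 of the 3 libraries. At 2007 its libraries were at 13.3, 10.3 and 8.91 CPM, while those at 1881 and 2139 stayed under 1 CPM.

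**Figure D3:**
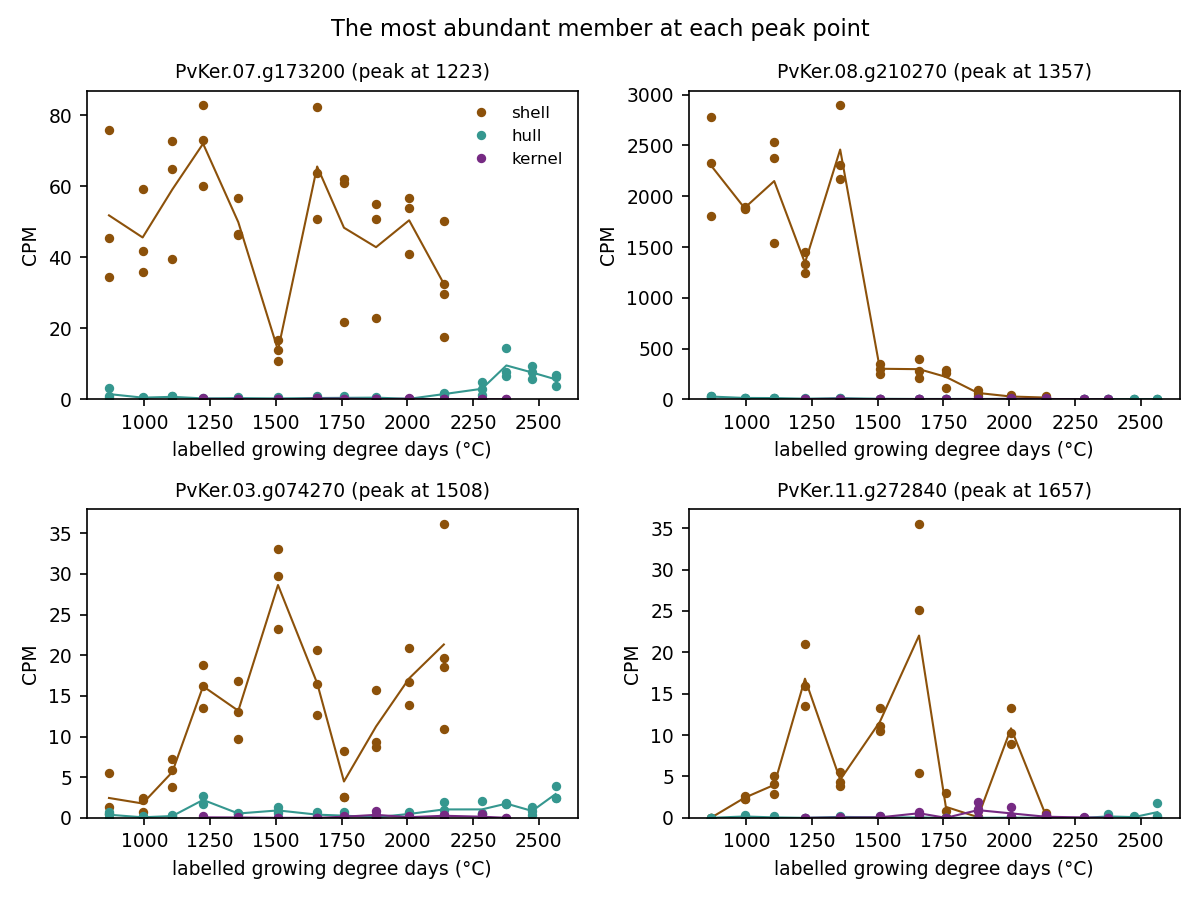
CPM (y axes) against labelled growing degree days in °C (x axes) for the member with the highest peak at each of the 4 points. Dots are used libraries and lines join group means, for shell, hull and kernel. The member that peaks at 1357 has libraries at 865 and 1106 within the range of its peak libraries, and the other 3 rise and fall more than once.

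PvKer.05.g130620, on chromosome 5, was singled out after its values were seen because it kept its level late. Its libraries stood at 2162, 1555 and 1922 CPM at 1357, and at 1213, 874 and 1539 CPM at 1881. From 865 its group means were 416, 690 and 1196 CPM at the first 3 points, and 612 CPM at 2139. All libraries at 1357 lay above all others of this gene in shell. Its late level was not particular to shell. The means at 1881 were 513 CPM in hull and 603 CPM in kernel, and at 2139 they were 413 and 423 CPM. Its shell peak was 3.12 times its highest mean in another tissue.

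The rule asked that both sides of the window lie below the peak and said nothing of which side is higher. The later points (1759 to 2139, 13 libraries) were therefore compared with the earlier ones (865 to 1106, 9 libraries) with edgeR's quasi-likelihood test over 18762 genes. Calls needed a Benjamini-Hochberg adjusted p under 0.05 and a change of 1 or more on the log2 scale in either direction. Of the 67 members, 47 fell and 6 rose. Over all genes tested, 17.3% were called lower and 12.2% higher. The median log2 fold change was -2.12 over the members and 0.00 over all genes. All 47 that fell had peaked at 1357. Over all genes, the shell mean labelled 1357 correlated with that labelled 1106 at 0.982 and with that labelled 1657 at 0.954. Choosing members by a peak at 1357 may therefore favour genes that were higher earlier. The genes of the background were not chosen by such a peak, and how much of the difference follows from the choice was not tested. Of the 6 that rose, 3 had peaked at 1657, and 1 each at 1223, 1357 and 1508. For 25 members every later library lay below every earlier one, as for 7.26% of the 16962 genes whose mean reached 1 CPM on either side. With 1 replicate number left out, 43 to 47 members were called lower and 5 or 6 higher.

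**Figure D4:**
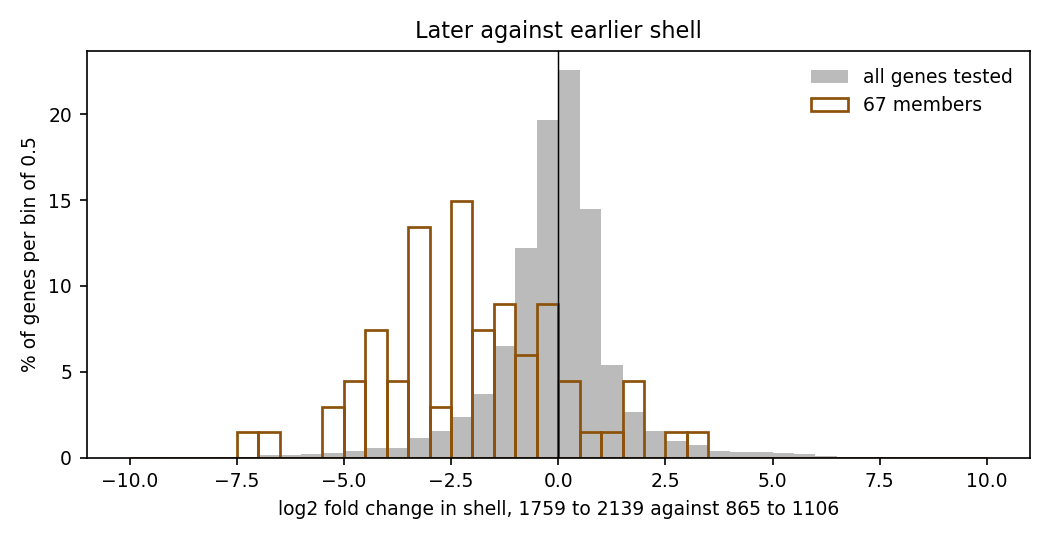
Distribution of log2 fold changes in shell, 1759 to 2139 against 865 to 1106 (x axis), as % of genes in each bin of 0.5 (y axis), for the 67 members (outline) and all 18762 genes tested (grey). The members centre at -2.12 and all genes at 0.00.

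The largest falls were those of PvKer.01.g027630 and PvKer.08.g202290. PvKer.01.g027630 ran from 6.41 to 18.8 CPM with a median of 9.82 in the earlier libraries, and from 0 to 1.01 CPM with a median of 0 in the later ones. The 2 sides did not overlap, and 7 of the 13 later libraries had no count. By edgeR the log2 fold change was -7.02 ± 0.43 (SE, adjusted p 1.27e-13), a size that depends on how libraries without a count are fitted. PvKer.08.g202290 ran from 1.36 to 90.7 CPM, median 54.1, in the earlier libraries and from 0 to 5.52 CPM, median 0.400, in the later ones. The sides overlapped only through the 865 library at 1.36 CPM. In edgeR this was a log2 fold change of -6.61 with an SE of 0.46 and an adjusted p of 3.14e-13. PvKer.08.g210270, the member with the highest CPM, had a log2 fold change in edgeR of -5.40 (SE 0.23, adjusted p 4.31e-18).

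The largest rises were those of PvKer.07.g168990 and PvKer.04.g097630. PvKer.07.g168990 ran from 0.121 to 3.17 CPM, median 0.525, earlier and from 0.643 to 27.6 CPM, median 5.09, later. The sides overlapped, with the highest later values at 1759 and 1881. The fitted difference in edgeR was a log2 fold change of 3.08 with an SE of 0.44 and an adjusted p of 4.39e-07. PvKer.04.g097630 ran from 0 to 4.28 CPM, median 0.778, earlier and from 2.93 to 13.2 CPM, median 5.79, later, and its sides overlapped as well. By edgeR this gave a log2 fold change of 2.79 with an SE of 0.35 and an adjusted p of 5.16e-08. This member was the 1 of the 6 that had peaked at 1357, with 15.1, 10.1 and 13.4 CPM there.

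The steps between neighbouring points inside the window contain the group that chose most members, so their counts are given beside the background and nothing is read from them. From 1223 to 1357, edgeR called 21 members higher and 3 lower, and of all genes 2.47% and 2.79%. Without replicate 3 it called 3 members higher and 0 lower, and 86 and 145 of 18765 genes. Without replicate 1 it called 9 and 1, and 205 and 313 of 18907 genes. With all used libraries the calls over all genes were 464 and 524 of 18762. From 1357 to 1508 it called 1 higher and 57 lower, and of all genes 8.38% and 9.73%. From 1508 to 1657 it called 8 higher and 3 lower, and of all genes 4.61% and 6.65%. Members called higher were 3 without replicate 1 and 4 without replicate 2. Over all genes, 865 were called higher, 538 without replicate 1 and 386 without replicate 2. These steps share the libraries of the point between them.

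A pair of comparisons that leave the 1357 group out was added after the values were seen. They set points against each other that the rule did not order for the members that peaked at 1357, while for a member that peaked at 1223 or 1508 the rule fixed the direction. From 1106 to 1223, edgeR called 11 members lower and 2 higher, against 4.93% and 4.02% of all genes. The median log2 fold change was -0.63 over the members and -0.04 over all genes. The 2 called higher were PvKer.07.g185360, whose direction the rule fixed since it peaked at 1223, and PvKer.11.g272840, which peaked at 1657. The count called lower was 2 without replicate 3, 5 without replicate 2 and 17 with S14 kept under its label. Over all genes, 925 were called lower, 149 without replicate 3, 624 without replicate 2 and 1330 with S14 kept.

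From 1223 to 1508, edgeR called 35 members lower and 1 higher, against 6.58% and 5.71% of all genes. The median log2 fold change was -1.35 over the members and -0.03 over all genes. Of the 35 that fell, 34 had peaked at 1357 and 1 at 1223, with log2 fold changes from -4.81 to -1.01. PvKer.09.g221110, the 1 called higher, had peaked at 1508 and was higher there by choice. The count called lower was 21 without replicate 1, and 13 with S14 kept. Over all genes, 1234 were called lower, 698 without replicate 1 and 1310 with S14 kept. PvKer.08.g210270 fell by 2.11 on the log2 scale, with an SE of 0.39 and an adjusted p of 0.000294 by edgeR. The comparisons from 1106 and to 1508 share the 1223 libraries.

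**Figure D5:**
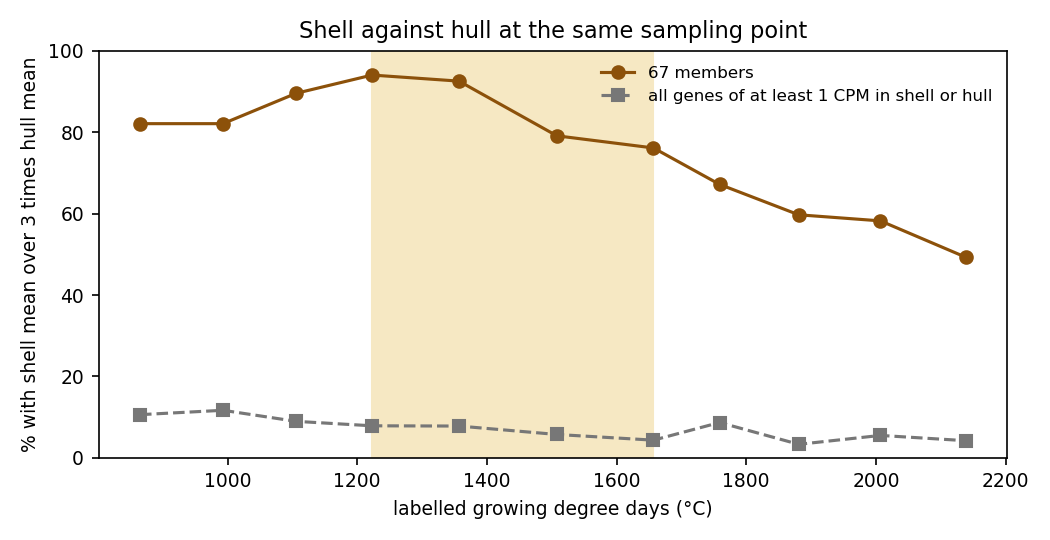
Share of genes whose shell mean was over 3 times the hull mean at the same labelled point (y axis, %), against growing degree days in °C (x axis), for the 67 members (circles) and for all genes of at least 1 CPM in shell or hull at that point (squares). The shaded span is 1223 to 1657; 63 of the 67 members pass at 1223 and 33 at 2139.

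Shell and hull means of the members were also set against each other at each point. The rule fixed the gap at a member's own peak point, which was 1357 for 58 of them. It also kept every hull mean under the shell peak divided by 3, so a shell level near the peak passed at any point by choice. The counts at other points thus depend on how near shell was to its peak, and none is a test. The genes of the background were not chosen this way. The shell mean was over 3 times the hull mean for 55 members at 865, for 55 at 993 and for 60 at 1106. The same held for 63 at 1223, 62 at 1357, 53 at 1508 and 51 at 1657. It held for 45 at 1759, 40 at 1881, 39 at 2007 and 33 at 2139. Of all genes with at least 1 CPM in either tissue, between 3.32% (1881) and 11.7% (993) passed at a point. The median ratio of shell to hull over the members was 10.03 at 865, 25.5 at 1106, 27.7 at 1357, 6.17 at 1508 and 2.83 at 2139. The plot of the shell to hull gap by point shows a gap that was there for most members at the first point and for fewer at the last.

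In hull the members were low but measurable, and 58 of the 67 had enough counts to be tested. The comparisons asked whether hull levels of these genes moved in the same span of labelled points. Against 865 to 1106, hull levels at 1223 to 1657 were higher for 4 members and lower for 12 by edgeR, and for 6.78% and 11.6% of 18924 genes. The median log2 fold change of the tested members was -0.21, and that of all genes was -0.01. With no library left out, these counts were 7 and 3 of 65 tested. That fit brings H15 into hull 1357 and adds H33 and H34. Of its 19046 genes, 1342 were called higher and 2057 lower. The members' median was then 0.22, of the opposite sign, and that of all genes was 0.01. Without the groups labelled 1223 the members' counts were 7 and 13, with 1499 and 2344 of 18898 genes.

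The largest fall in hull was that of PvKer.07.g190510, from a median of 0.676 CPM (0.202 to 2.72, 9 libraries) to 0.0946 CPM (0 to 0.620, 11 libraries). The sides overlapped, and 4 of the 11 libraries had no count. edgeR's test gave a log2 fold change of -2.71 with an SE of 0.61 and an adjusted p of 0.000356. The largest rise was that of PvKer.03.g074270, from a median of 0.202 CPM (0 to 0.685) to 0.654 CPM (0.0841 to 2.71). The sides overlapped, and the log2 fold change in edgeR was 2.18 (SE 0.57, adjusted p 0.00146). Both stayed under 3 CPM in every one of these hull libraries.

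Against the later hull points, 1759 to 2139, levels at 1223 to 1657 were higher for 15 members and lower for 1, and for 9.06% and 4.05% of all genes tested by edgeR. The median log2 fold change was 0.32 over the 58 tested members and 0.02 over all genes. The count called higher was 10 without replicate 3, where 1503 of 19391 genes were called higher. PvKer.04.g112290 had the largest rise, from a median of 0.0427 CPM (0 to 0.389, 12 libraries) later to 0.394 CPM (0.0841 to 2.06, 11 libraries) in the window. Later and window libraries overlapped, and 6 of the later ones had no count. In edgeR this was a log2 fold change of 3.20 with an SE of 0.62 and an adjusted p of 7.65e-05, and with no library left out it was 2.20 and no longer called. PvKer.04.g117540 was the member called lower, with a median of 0.5678 CPM (0.162 to 3.31) in the window and 1.61 CPM (0.391 to 4.25) later. The fitted difference in edgeR was a log2 fold change of -1.25 with an SE of 0.30 and an adjusted p of 0.000793, and without the groups labelled 1223 it was -0.87, under the minimum. Both hull comparisons share the 11 libraries of the window.

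In kernel, 39 of the 67 members had enough counts to be tested. Some used kernel libraries had a large part of their counts on identifiers named after contigs. These were K34 (58.1%) and K35 (28.1%), labelled 2139, and K10 (26.7%), labelled 1357. K34 was the shallowest, with 850623 counts on numbered chromosomes. Levels at 1223 to 1657 were higher than at 1759 to 2139 for 4 members and lower for 5 by edgeR, and for 12.7% and 10.4% of 17248 genes. As a median, the log2 fold change was -0.19 over the tested members and 0.01 over all genes. With no library left out, 3 were higher and 18 lower of 51 tested, and 1791 and 2523 of 17566 genes. The median log2 fold change was then -1.15 over the tested members and -0.15 over all genes. The added libraries include K23 and K32, which are described with the libraries left out. Without replicate 3, 2 were called lower, as were 1747 of 16898 genes. Without replicate 1, 3 were, as were 1610 of 17831 genes. Without the groups labelled 1223, 3 were called lower, as were 1411 of 16840 genes. The members' median was then 0.01 and that of all genes -0.01. Without the libraries left out by the rule, the 4 and 5 calls among 39 members are near the background.

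PvKer.14.g353560 had the largest rise, with a median of 5.90 CPM (2.97 to 28.5, 12 libraries) at 1223 to 1657 and 1.44 CPM (0 to 3.34, 12 libraries) later. The sides overlapped slightly. By edgeR this gave a log2 fold change of 2.50 with an SE of 0.31 and an adjusted p of 9.72e-08. PvKer.09.g215000 had the largest fall, with a median of 0.626 CPM (0.0992 to 1.81) in the window and 2.36 CPM (0 to 5.12) later. Its sides overlapped too, and the log2 fold change in edgeR was -2.01 (SE 0.38, adjusted p 5.65e-05).

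Kernel and hull, where the members are low by choice, were compared with each other over the 8 points from 1223 to 2139. Of 61 members tested, 34 were lower and 6 higher in kernel by edgeR, against 30.9% and 20.4% of 20044 genes. As a median, the log2 fold change was -1.31 over the tested members and -0.25 over all genes. Of the 45 members whose mean reached 1 CPM in either tissue, 9 had every kernel library below every hull library, as did 14.6% of the 17100 genes at that level. PvKer.07.g173410 had the largest difference downward, with a median of 0 CPM in kernel (0 to 0.375, 24 libraries, 18 of them with no count) and 2.82 CPM in hull (0.485 to 9.02, 23 libraries). The tissues did not overlap. edgeR's test gave a log2 fold change of -5.91 with an SE of 0.44 and an adjusted p of 5.52e-17, a size that depends on how libraries without a count are fitted. PvKer.11.g266590 had the largest difference upward, with a median of 5.17 CPM in kernel (0.629 to 17.1) and 0.860 CPM in hull (0 to 1.53). The tissues overlapped, and the log2 fold change in edgeR was 3.41 (SE 0.23, adjusted p 8.80e-21). The hull libraries of this comparison are also in the hull comparisons, and the kernel libraries in the kernel one.

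Of the libraries left out by the rule, 8 have kept libraries in their labelled group. H15, labelled hull 1357, had 0.711% of its counts in the members, against 0.0980% to 0.113% in the 3 kept libraries of its group and 0.743% or more in the used shell libraries labelled 1223. In it 59 of the 67 members lay above all kept libraries of its group, as did 37.7% of all genes. S14, labelled shell 1223, had 0.118%, and 64 of the 67 members lay below all kept libraries of its group, as did 43.1% of all genes. The hull libraries labelled 1223 had 0.0990% and 0.102%. H33 and H34, labelled hull 1881, had 0.218% and 0.311%, against 0.111% and 0.114% in the kept libraries, with 55 and 59 members above both, as were 29.9% and 30.2% of all genes. K23, labelled kernel 1759, had 0.151% with 60 members above both kept libraries, as were 59.7% of all genes. K32, labelled kernel 2139, had 0.146% with 58 members above all kept libraries, as were 50.2% of all genes. K23 and K32 had 23566001 and 17940559 counts on numbered chromosomes, above the 12312036 of the deepest used kernel library. K38.2, labelled kernel 2284, had 33 members above and 6 below all kept libraries, against 36.3% and 28.7% of all genes. K44, labelled kernel 2377, had 25 above and 11 below, against 39.8% and 28.9%. The part of other tissue in these libraries was not tested.

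The members did not sit in 1 place in the genome. By the numbering of the identifiers they lay on 14 of 15 chromosomes, with 11 on chromosome 1, 8 on chromosome 7, 8 on chromosome 9 and 0 of 1870 identifiers on chromosome 15. There were 3 pairs within 5 identifiers of each other. PvKer.04.g112280 and PvKer.04.g112290 had no identifier between them, and their log2 CPM correlated at r = 0.722 over 34 shell libraries. PvKer.09.g220460 and PvKer.09.g220480 had 1 between them (r = 0.886), as did PvKer.13.g312070 and PvKer.13.g312090 (r = 0.757). These libraries share the course over the season that chose the members. Whether the members of a pair are near-identical copies could not be read from identifiers, so a split of reads between them was not tested.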

How the data were processed

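Per the labels' protocols, RNA libraries were made with a TruSeq v2 kit, which does not mark strand, and read from both ends over 150 bp. Raw read counts per gene and library were deposited by the authors in 1 table. Trimmomatic 0.39 and Bowtie2 2.3.4.1 are named in the submitters' processing notes. Build, annotation and counting tool were not given in the sources used here, so reads of near-identical or overlapping genes may be split or shared. The 1252 identifiers named after contigs stayed out of totals and tests.

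The members and lists were chosen with earlier results of these data known. CPM was computed from the deposited counts, and correlations used log2(CPM + 1). Tests used edgeR 4.0.16 in R 4.3.3 (TMM, filterByExpr by group, glmQLFit, glmQLFTest, 1 mean per group, points weighted equally, separate fits per tissue), with SE as the absolute log2 fold change over the square root of F. DESeq2 1.42.0 was an alternative. Named members were the highest peak at each of the 4 points, the 2 largest rises and falls called later against earlier in shell, the largest rise and fall called in each other planned comparison, and the genes at the limits of the rule. The comparisons from 1106 to 1223 and from 1223 to 1508, and the fits without the groups labelled 1223 or 1357, were chosen after seeing the data. Replicate numbers follow accession order and pair nothing. The labels do not say whether replicates came from separate trees, so p-values measure the spread between these samples, which may be technical. No label gives a batch, so no value within batches was computed.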

Additional observations from a re-analysis of the deposited data

Results flagged for a closer look

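Libraries far from the others of their group were sought in 8 groups of 4 libraries, libraries left out by the rule included, for the summed share of the members and the CPM of the 4 members named for their peaks. Of these 40 combinations 16 were marked. The limit marks about 1 in 20 by chance where values are independent and not chosen, and that rate does not apply here. Most marks fell on libraries that were left out when the members were chosen. The 5 measures also overlap, and where all other libraries had 0 any count was marked. In hull 1357, H15 stood apart in all 5 measures, with 0.711% for the summed share against 0.0980% to 0.113%, 62.6 CPM for PvKer.07.g173200 against at most 0.561, 1062 CPM for PvKer.08.g210270 against at most 14.8, 11.8 CPM for PvKer.03.g074270 against at most 0.654 and 10.05 CPM for PvKer.11.g272840 against at most 0.189. In shell 1223, S14 had a summed share of 0.118% against 0.743% or more and 8.64 CPM of PvKer.08.g210270 against 1245 to 1455.

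K38.2, labelled kernel 2284 and with 202455 counts on numbered chromosomes, had a summed share of 0.133% against 0.0585% to 0.0644%. It had 9.88 CPM of PvKer.07.g173200, 19.8 CPM of PvKer.08.g210270 and 4.94 CPM of PvKer.11.g272840, against at most 0.105, 0.947 and 0.135 CPM. In a library this shallow, levels of that size rest on very few counts. K32, labelled kernel 2139, had 8.81 CPM of PvKer.07.g173200 against 0 and 5.07 CPM of PvKer.03.g074270 against at most 0.403. The other marks were at lower CPM, in libraries with 15741744 (H32), 9396137 (K39) and 14050676 (H34) counts on numbered chromosomes. PvKer.07.g173200 stood at 0.889 CPM in H32 (hull 1759) against 0.227 to 0.305. PvKer.03.g074270 stood at 0.426 CPM in K39 (kernel 2284) against 0, and PvKer.11.g272840 at 0.214 CPM in H34 (hull 1881) against 0. Of these libraries H15, H34, K32, K38.2 and S14 are among the 14 that the rule leaves out, and H32 and K39 are used.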

How the results depend on the processing

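Of 251 alternative counts, 211 lay within 1.5 times the value reported, and of 148 alternatives of named members 146 kept their direction and their call. The later against earlier comparison in shell kept all its counts within 1.5 times in the alternatives run. The number of members was 127 at over 2 times hull and kernel, 13 without the groups labelled 1357, 49 with TMM-scaled CPM, 61 with all libraries, and 52 to 86 with 1 replicate number left out. Members called higher from 1223 to 1357 were 3 to 15 with 1 replicate number left out, and those called lower 0 to 2, or 1 in 1 fit of all tissues and with all libraries. From 1357 to 1508 the rises were 3 by DESeq2 and 1 to 2 with a replicate number left out, and from 1508 to 1657 they were 4 with all libraries and 3 to 7 with a replicate number left out. From 1106 to 1223, rises were 1 with all libraries and 1 to 2 by replicate left out, and falls were 17 and 2 to 12. From 1223 to 1508, rises were 2 with all libraries, 2 with no minimum fold change and 1 to 2 by replicate left out, and falls were 13 with all libraries and 21 to 32. In hull, window against earlier, rises were 11 and falls 21 with no minimum fold change, 7 and 3 with all libraries, and rises were 7 without the groups labelled 1223. Window against later in hull, falls were 5 with no minimum fold change, 2 without the groups labelled 1357, 0 without those labelled 1223 and 1 to 2 by replicate left out. In kernel, rises were 7 and falls 8 with no minimum fold change, and falls were 18 with all libraries, 3 without the groups labelled 1223 and 2 to 5 by replicate left out. The cause of these moves was not tested. The median of all genes moved by over 0.1 on the log2 scale in kernel against hull (0.13 by DESeq2, 0.11 in 1 fit of all tissues) and in the kernel window with all libraries (-0.16). No paired analysis was possible because titles carry library numbers and no replicate numbers. In hull and kernel, where the rule chose genes of low level, 9 and 28 of the 67 members had too few counts to be tested.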
